A study of Mus musculus with 2 samples.

Results

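The microRNA genes of miR-338 and miR-219, known from myelinating oligodendrocytes, were examined in small RNA of mouse hippocampal tissue. The genes were taken by symbol, as Mir338 and every gene whose name starts with Mir219, which gave 5 of the 2202 microRNA genes counted: Mir338, Mir219a-1, Mir219a-2, Mir219b and Mir219c. The study held 1 group of 2 microRNA-seq libraries, labelled biological replicates 1 and 2, and no control group was analysed here. Both came from a hippocampal layer of adult male mice of strain 5xFAD/CAST, aged 8 to 10 months. 5xFAD mice model Alzheimer disease through transgenes driven by the neuronal Thy1 promoter, and CAST is a wild-derived strain. The labels give a tissue record for each library but 1 shared donor record, so the spread between the libraries may be technical and p-values speak of these 2 libraries only.

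Oligodendrocytes are the cells that wrap axons of the brain in myelin. As their precursors leave the cell cycle, miR-219 and miR-338 accumulate and repress proteins that hold the precursors in the proliferating state, among them Pdgfra, Sox6 and Hes5. Both microRNAs are known as markers of mature oligodendrocytes and as promoters of myelination. A microRNA gene is transcribed as a hairpin, from which a mature strand of the 5′ arm (5p) or the 3′ arm (3p) is cut, and bases 2 to 8 of the mature strand, the seed, pair with target messenger RNAs.

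The mature sequences of the leading genes and of the strands annotated opposite them are shown first, because they decide which reads can be told apart. They are RefSeq sequences of build GRCm38.p6, written 5′ to 3′ with the seed in capitals.
miR-338-3p: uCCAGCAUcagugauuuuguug
miR-219a-5p: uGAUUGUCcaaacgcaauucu
miR-219a-1-3p: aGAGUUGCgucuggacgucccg
miR-3065-5p: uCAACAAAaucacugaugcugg
miR-219b-3p: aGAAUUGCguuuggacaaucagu
miR-219c-3p: cGAGAAUUgcguuuggacaauc
All 5 genes and the gene opposite Mir338, called Mir3065, were found in the RefSeq table. No seed listed for these genes was shared with a mature microRNA of any other gene in that table. Only miR-219a-5p is written by 2 of the genes, Mir219a-1 and Mir219a-2. The seeds of the opposite-strand microRNAs differ from those of miR-219a-5p and miR-338-3p.

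The genes lie at 3 places, each with a microRNA gene on either strand. Mir338 (ENSMUSG00000065600.1; mm10 chromosome 11, 120014765 to 120014862, minus strand) lies in an intron of Aatk, a kinase gene read from the same strand. Mir3065 covers 87 of its 98 bases on the plus strand. Mir219a-2 (ENSMUSG00000065485.1; chromosome 2, 29845631 to 29845727, minus strand) lies outside other annotated genes, 629 bases from Urm1, and Mir219b covers 65 of its 97 bases on the plus strand. Mir219a-1 (ENSMUSG00000065555.1; chromosome 17, 34024983 to 34025092, minus strand) lies outside other annotated genes, 303 bases from Ring1. Mir219c covers 60 of its 110 bases on the plus strand. Mir219b (ENSMUSG00000105010.1) runs from 29845647 to 29845711 and Mir219c (ENSMUSG00000105964.1) from 34025012 to 34025071. GC content was 69.1% in the hairpin of Mir219a-1, 56.1% in Mir338, 55.7% in Mir219a-2, 58.3% in Mir219c and 49.2% in Mir219b. The mature strands lie over each other as well: miR-3065-5p overlaps miR-338-3p by 21 bases, miR-219b-3p covers all 21 bases of miR-219a-5p, and miR-219c-3p covers 20 of them at Mir219a-1.

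**Figure D1:**
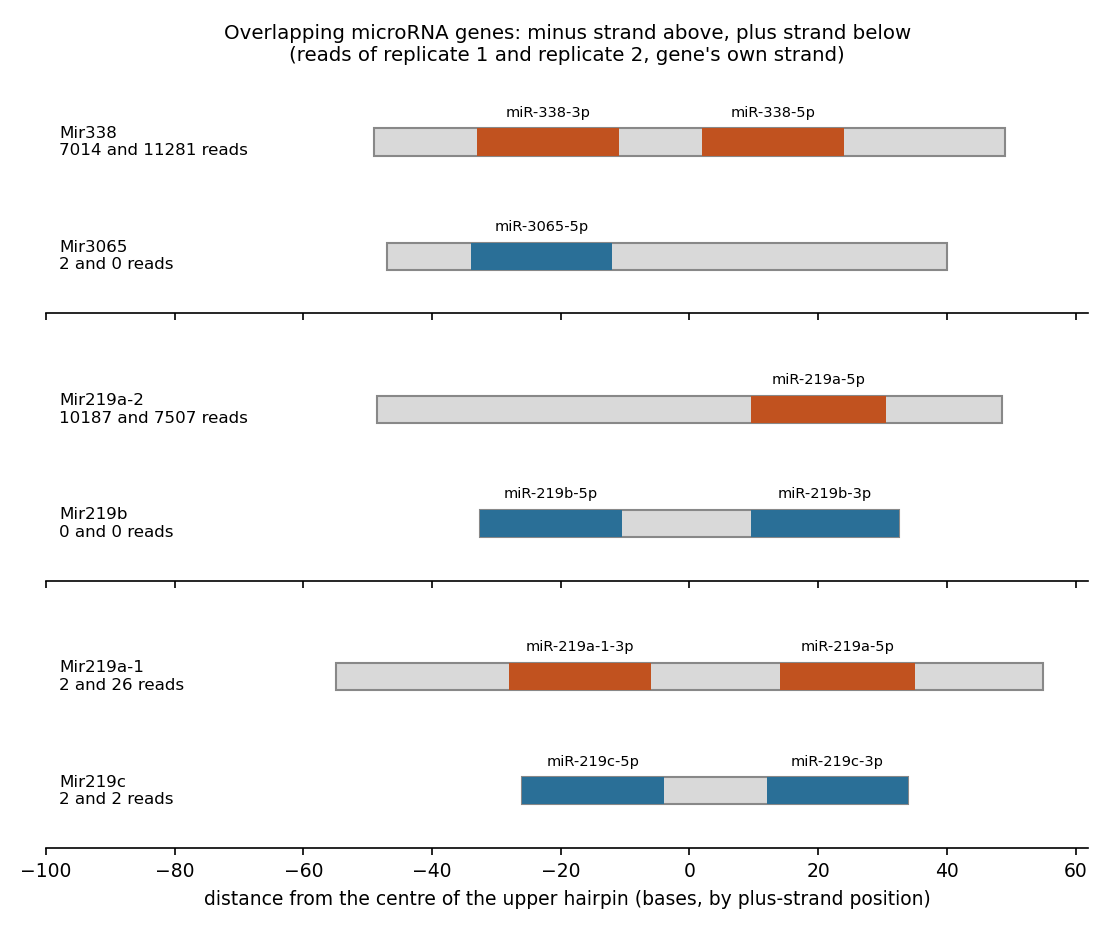
Map of the 3 places, with the minus-strand hairpin above and the plus-strand hairpin below, mature strands in colour and distance in bases from the centre of the upper hairpin. Printed beside each hairpin are its reads in replicate 1 and replicate 2; reads lie on the minus strand at Mir338 (7014 and 11281) and Mir219a-2 (10187 and 7507).

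Mir338 and Mir219a-2 held nearly all reads of the set. Mir338 had 7014 reads in replicate 1 and 11281 in replicate 2, or 2050 and 4000 CPM. CPM are counts scaled to the library's total, here the reads assigned to microRNA genes. Mir219a-2 had 10187 and 7507 reads, or 2977 and 2662 CPM. Mir338 was thus the lower of the pair in replicate 1 and the higher in replicate 2.

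Both stood above the upper quartile of the detected genes. By mean CPM Mir338 ranked 48th and Mir219a-2 50th of 389 detected genes, those that reached 10 reads in each library. Their median was 105 CPM and their upper quartile 876 CPM. Mir338 ranked 59th in replicate 1 and 39th in replicate 2, and Mir219a-2 ranked 48th and 53rd. Together the 2 genes gave 99.98% and 99.85% of the reads of the 5 genes, whose sum was 0.503% of assigned reads in replicate 1 and 0.667% in replicate 2. Reads of small RNA normally span the whole molecule, so counts were not divided by hairpin length. Per 100 bases of hairpin the mean levels were 3086 CPM for Mir338 and 2906 CPM for Mir219a-2. Mir338 and Mir219a-2 are themselves the oligodendrocyte markers among microRNAs, so they give no independent check of that cell type, and no messenger RNA was measured.

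The other 3 genes were at or near the limit of detection. Mir219a-1 had 2 reads in replicate 1 and 26 in replicate 2, or 0.584 and 9.22 CPM. Mir219c had 2 reads in each library, or 0.584 and 0.709 CPM. Mir219b had none, and a count of 0 allows up to 0.877 CPM in replicate 1 and 1.06 CPM in replicate 2 (3 reads per library). With these, 2 of the 5 genes were detected, where 17.7% of all 2202 genes were. The mean levels ran from Mir338 (3025 ± 1379 CPM) over Mir219a-2 (2819 ± 223), Mir219a-1 (4.90 ± 6.11) and Mir219c (0.647 ± 0.088) to Mir219b (SD, n = 2 throughout). Mir338 and Mir219a-2, next to each other in this order, differed by less than the spread of Mir338 between libraries. Mir219a-1 and Mir219c differed by less than the spread of Mir219a-1.

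**Figure D2:**
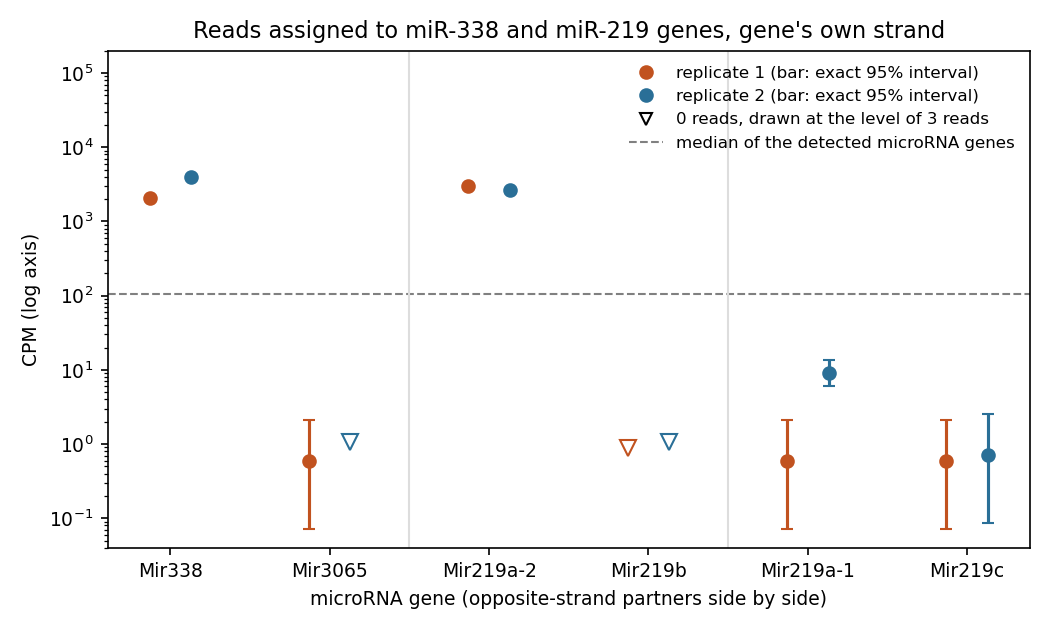
Level of each gene in CPM on a log axis, with opposite-strand partners side by side, 1 point per library, exact 95% intervals of counting error, and open triangles at the level of 3 reads for a count of 0. Mir338 and Mir219a-2 lie at 2050 to 4000 CPM, above the dashed median of the detected genes (105 CPM), and the other 4 genes lie below 10 CPM.

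Reads fell on 1 strand at the 2 leading places. At the Mir338 locus 99.97% of the reads of replicate 1 lay on the strand of Mir338 (7014 against 2 of Mir3065, exact 95% interval 99.897 to 99.997). In replicate 2 all 11281 did, and the exact 95% interval for the share of Mir3065 reached up to 0.0327%. At the Mir219a-2 locus no read of either library lay on the strand of Mir219b. The exact 95% interval for its share reached up to 0.0362% in replicate 1 and 0.0491% in replicate 2. At the Mir219a-1 locus the reads were few on both strands, at 2 against 2 of Mir219c in replicate 1 and 26 against 2 in replicate 2, where the share of Mir219a-1 was 92.9% (76.5 to 99.1). Reads mostly on 1 strand were common at such places: of 32 pairs of microRNA genes overlapping on opposite strands, 21 had at least 100 reads in both libraries, and in all 21 over 99% of reads lay on 1 strand in both. Just under that minimum, Mir24-1 with Mir3074-1, named after their values were seen, had 85 and 105 reads and only 69.4% and 77.1% on 1 strand. Among the 32 pairs Mir338 with Mir3065 ranked 6th and Mir219a-2 with Mir219b 7th by reads.

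Folding of the same stretch on both strands, predicted with RNAfold, gave the lower free energy on the strand of Mir338, Mir219a-2 and Mir219a-1. Over the 65 bases of Mir219b the predicted energy was -25.2 kcal/mol on the strand of Mir219a-2 and -18.8 on that of Mir219b. Over the 60 bases of Mir219c it was -31.1 on the strand of Mir219a-1 and -26.8 on that of Mir219c. Over the 87 bases of Mir3065 it was -41.4 on the strand of Mir338 and -39.0 on that of Mir3065. The energies describe the sequences, and their part in the read counts was not tested.

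The strand also decides whether these genes are counted at all. In the column that disregards strand, all 5 genes and Mir3065 had 0 reads in both libraries. That column holds 234489 ambiguous reads in replicate 1 and 176310 in replicate 2, where the column of the gene's own strand holds none. The 64 microRNA genes that overlap another on the opposite strand had 234504 and 176331 reads on their own strand, but 15 and 21 in the column without strand. The reads of the 5 genes and Mir3065, 17207 and 18816, were as many as 7.34% and 10.7% of the ambiguous reads.

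Assigned reads of miR-219a lay almost wholly at 1 of its 2 copies. Mir219a-2 took 99.980% of the reads assigned to Mir219a-1 and Mir219a-2 in replicate 1, with an exact 95% interval of 99.929 to 99.998. In replicate 2 its share was 99.655% (99.495 to 99.774). The ratio of Mir219a-2 to Mir219a-1 was 5094 in replicate 1 (1410 to 42064, from 2 reads of Mir219a-1) and 289 in replicate 2 (197 to 442). Both intervals cover counting error alone.

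The copies can be compared only in part, as their hairpins show. They are given whole, 5′ to 3′, with the run that both share in capitals.
Mir219a-1: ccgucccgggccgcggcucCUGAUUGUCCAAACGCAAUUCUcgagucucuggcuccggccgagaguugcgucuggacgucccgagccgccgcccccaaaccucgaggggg
Mir219a-2: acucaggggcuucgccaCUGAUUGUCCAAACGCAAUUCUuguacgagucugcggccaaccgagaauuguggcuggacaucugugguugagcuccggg
The shared run of 22 bases holds all 21 bases of miR-219a-5p, so a read of exactly that microRNA fits both genes. Of the 77 stretches of 21 bases in the Mir219a-2 hairpin, 2 also occur in Mir219a-1. The 3′ arms differ: the stretch of Mir219a-2 closest to miR-219a-1-3p matches it at 15 of 22 bases, and reads as follows with the differing bases in capitals.
Mir219a-2, hairpin bases 62 to 83: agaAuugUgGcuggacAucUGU
The RefSeq table lists no mature strand for the 3′ arm of Mir219a-2, so the seed of that arm was not compared. Over their whole length the 2 hairpins were 63.2% identical. The sources used here do not say how reads of miR-219a-5p were counted. Reads that fit several places form a row of their own, with 4037293 reads in replicate 1 and 3264159 in replicate 2, and carry no gene name. The counts are per hairpin, so the arms behind the 10187 and 7507 reads of Mir219a-2 cannot be told apart, and its level is uncertain. For Mir338 no stretch of 20 bases was shared with a microRNA gene at another place, and miR-338-3p was found, in its own sense, in the hairpin of Mir338 alone.

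Among duplicated microRNAs with enough reads, the assigned reads of miR-219a were the most unevenly divided. How reads that fit both copies were counted is not known, so the division of the mature microRNA itself was not measured. Of the named pairs of copies that share 20 bases, 17 had at least 100 assigned reads in both libraries, and the larger copy held a median of 77.1% in replicate 1 and 74.2% in replicate 2. Mir219a-2 ranked 1st of the 17 in both libraries. Next came Mir181b-2, with 98.7% and 98.9% of the pair, and Mir181a-1, with 97.7% and 96.0%. At the other end the copies of Mir29b were nearly equal, with 50.5% and 51.3% at the copy that was larger in each library. This comparison was made after the values of Mir219a-1 and Mir219a-2 had been seen, and it carries no test.

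**Figure D3:**
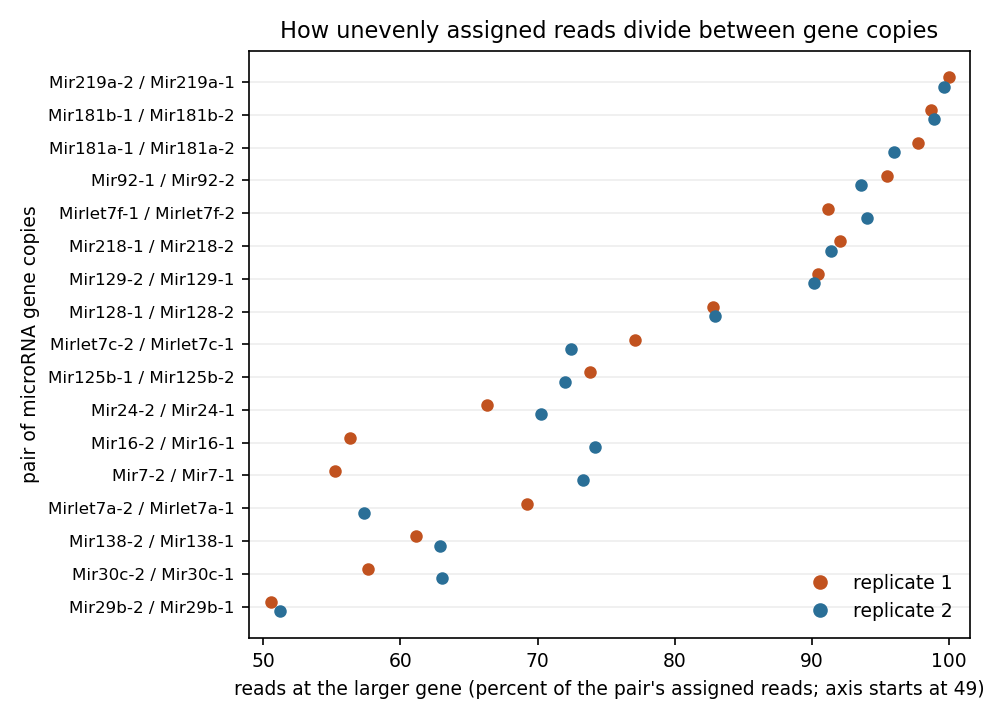
Share of a pair's assigned reads at the larger gene, in percent, for the 17 named pairs of microRNA gene copies with at least 100 reads in both libraries, 1 point per library. The Mir219a pair lies at the top with 99.98% and 99.65%, and the Mir29b pair at the bottom with 50.5% and 51.3%.

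The libraries differed in Mir338 more than in Mir219a-2, and in opposite directions. Mir338 was lower in replicate 1 (log2 ratio of replicate 1 over replicate 2 -0.87, exact 95% interval -0.91 to -0.82), a level 1.82-fold higher in replicate 2 after TMM scaling, which evens out differences in library composition. Mir219a-2 was higher in replicate 1 by a log2 ratio of 0.26 (0.22 to 0.30), or 1.20-fold. By the two-sided exact binomial test of the 2 counts, adjusted by Benjamini-Hochberg over 389 genes, both differed: adjusted p = 4.05e-32 for Mir219a-2, and a p too small for the software to store for Mir338. The test compares 2 libraries beyond counting error and no condition. In bulk tissue, fewer cells of a type and less RNA per cell cannot be told apart.

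Such differences were common. The test called 67.6% of the detected genes, 33.7% as higher and 33.9% as lower in replicate 1. The ratio of Mir338 was at least matched in size by 108 of the other 388 detected genes (27.8%), that of Mir219a-2 by 286 (73.7%), where the SD of the log2 ratio over all 389 was 0.92 and its median absolute value 0.52. With the spread of both libraries as its error, the edgeR exact test called 2 genes (0.514%), neither of them Mir338 or Mir219a-2 (adjusted p = 1.0 for each; unadjusted p = 0.315 and 0.761). Mir219a-1, with under 10 reads in replicate 1, was outside both tests. Its reads gave 14.7-fold more in replicate 2 (counting interval 3.69 to 128). With no filter on low counts, the exact binomial test called 282 of 756 genes, Mir219a-1 among them (adjusted p = 1.38e-06).

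The balance of the assigned reads of the 2 genes changed between the libraries, which needs no scaling. How reads of miR-219a-5p, which fit both of its copies, were counted is not known, so the balance of the mature microRNAs may differ. Mir338 had 0.689 reads for each read of Mir219a-2 in replicate 1, with a counting interval of 0.668 to 0.710. In replicate 2 it had 1.503, with an interval of 1.459 to 1.547. The ratios differed 2.18-fold, and their intervals of counting error did not overlap. The mean log2 ratio of Mir338 over Mir219a-2 was 0.025 ± 0.80 (SD, n = 2), so no order of the 2 genes held beyond the spread between the libraries.

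**Figure D4:**
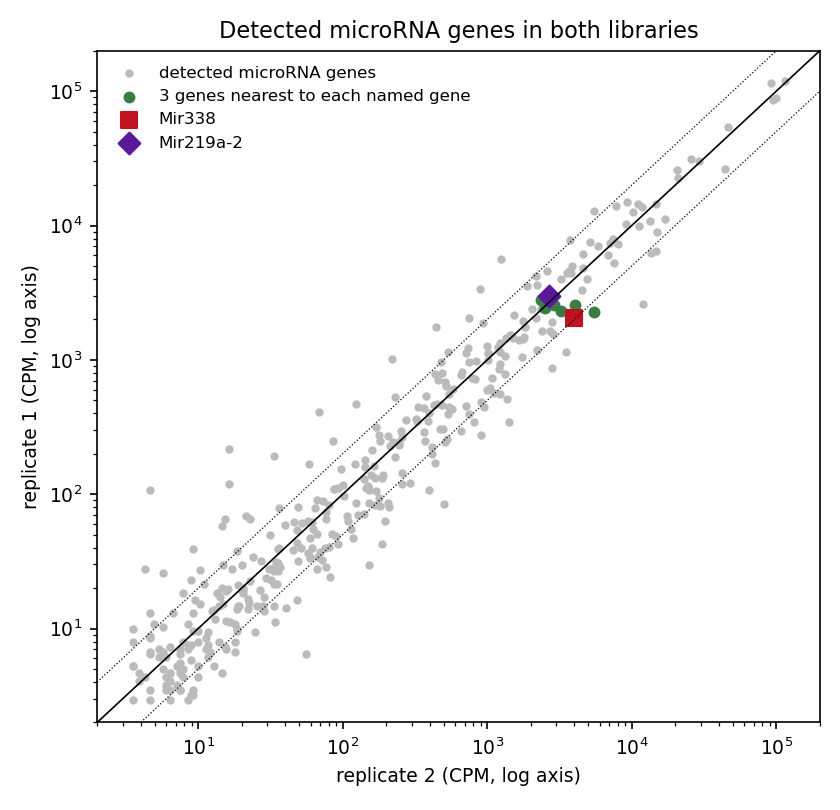
Level of each of the 389 detected microRNA genes in replicate 1 (vertical, CPM, log axis) against replicate 2 (horizontal, CPM, log axis), with a line of equal levels and dotted lines at 2-fold. Mir338 (square) lies at 2050 and 4000 CPM near the lower dotted line, Mir219a-2 (diamond) at 2977 and 2662 CPM near the line of equal levels, and green points mark the 3 genes nearest to each.

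The genes closest to each in level over the 2 libraries were named by distance on the log2 CPM scale. Closest to Mir338 were Mir138-1 (2559 and 4053 CPM, distance 0.32), whose product is known in neurons and in early oligodendrocyte differentiation, Mir671 (2316 and 3240 CPM, 0.35) and Mir22 (2259 and 5448 CPM, 0.47). All 3 were lower in replicate 1, as Mir338 was, which the measure of likeness favours. Closest to Mir219a-2 were Mir107 (2773 and 2350 CPM, 0.21), Mirlet7f-2 (2551 and 2876 CPM, 0.25) and Mir760 (2432 and 2506 CPM, 0.31). Mir138-1, Mir107 and Mirlet7f-2 share sequence with other genes and are uncertain in level.

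Other microRNAs with a reported role in the oligodendrocyte lineage were present from high to very low levels. Of a list of 24 symbols, 22 matched a gene and 20 of these were detected, with a median of 800 CPM against 105 CPM over all detected genes. Of all 2202 genes 17.7% were detected, and the list was chosen with earlier results of these data known. The list took 7.10% of assigned reads in replicate 1 and 7.20% in replicate 2. Of the list, 6 symbols stand in lists of other cell types as well, and 12 of the 22 genes share sequence with another gene. The 10 genes that share none took 2.27% in replicate 1 and 3.24% in replicate 2, so the near-equal sums of the whole list rest on genes uncertain in level. The symbols Mir7a-1 and Mir7a-2 matched no gene, but RefSeq lists them as synonyms of Mir7-1, with 222 and 216 reads, and Mir7-2, with 274 and 593 reads. With both added, the list took 7.12% and 7.23%. Mir23b and Mir23a, the second of which is known to repress lamin B1 and to favour myelination, had 26058 and 20485 CPM and 15031 and 9331 CPM. Mir29a had 10822 and 13347 CPM.

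Mir125a, whose 3p strand is known to slow the maturation of precursors, had 6446 CPM in replicate 1 and 14716 in replicate 2. In all, 5 of the 22 genes stood above both Mir338 and Mir219a-2 in mean CPM: Mir23b, Mir29a, Mir23a, Mir125a and Mir138-1. The last, at 3306 ± 1056 CPM (SD, n = 2), differed from Mir338 by less than the spread of either between libraries. In replicate 1 Mir138-1 lay below Mir219a-2, at 2559 against 2977 CPM. Mir17, of the cluster that drives proliferation of precursors, had 684 and 511 CPM. Mir212, known to restrain oligodendrocyte differentiation, had 198 and 416 CPM. Mir32 had 19.6 and 16.0 CPM. Between the libraries 9 of the 20 detected genes were higher and 8 lower in replicate 1 by the exact binomial test, and 3 did not pass it. Over all detected genes the test called 33.7% as higher and 33.9% as lower. With Mir7-1 and Mir7-2 added, 9 of 22 were higher and 9 lower. The median log2 ratio of the 20 genes was 0.19, against -0.05 over all detected genes. The called genes of the list thus lay in both directions.

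**Figure D5:**
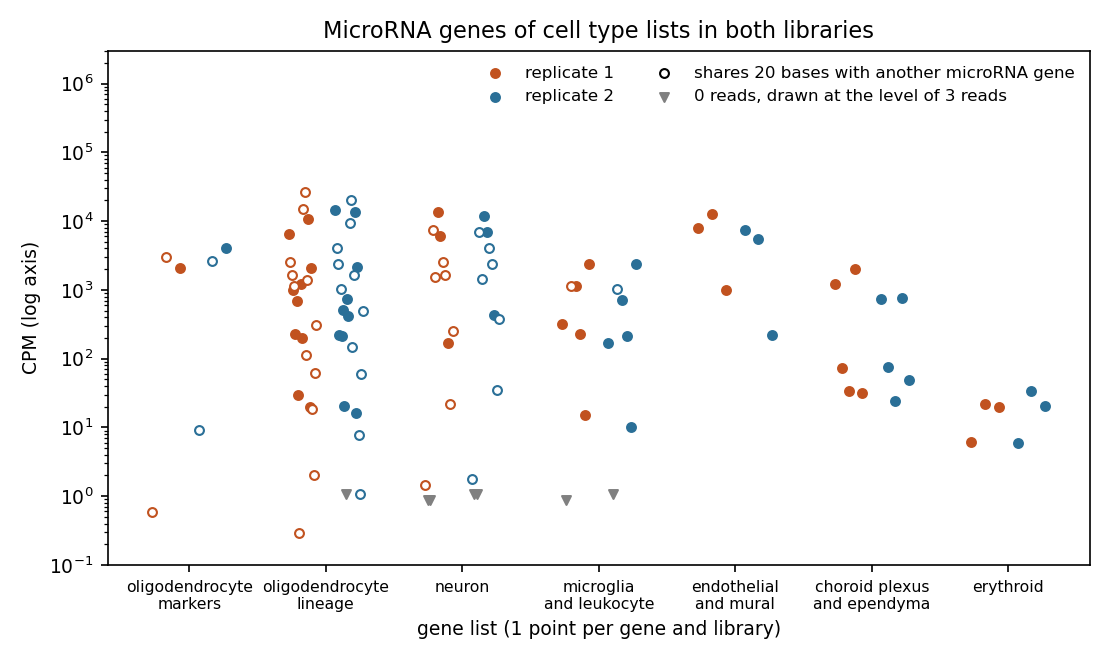
Level in CPM on a log axis of each gene of 7 lists, 1 point per gene and library, with open points where 20 bases also occur in a different microRNA gene and triangles at the level of 3 reads for a count of 0. The oligodendrocyte markers Mir338 and Mir219a-2 lie at 2050 to 4000 CPM in both libraries, above the 3 erythroid genes, the highest of which, Mir451a, had 21.6 and 33.3 CPM. The remaining oligodendrocyte marker, Mir219a-1, lies below Mir451a at 0.584 and 9.22 CPM. Genes of the neuron list and of the endothelial and mural list lie on both sides of Mir338 and Mir219a-2. Mir132 had 13708 and 11795 CPM and Mir153 had 170 and 436 CPM. Mir143 had 12791 and 5473 CPM and Mir145a had 1009 and 220 CPM.

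Markers of other cell types are given beside these values, and their calls are to be read against the 33.7% of all detected genes called higher and the 33.9% called lower in replicate 1. The 3 genes of the endothelial and mural list, Mir126a, Mir143 and Mir145a, were all higher in replicate 1, and their summed share was 2.17% in replicate 1 and 1.32% in replicate 2. The microglia and leukocyte list took 0.521% and 0.448%, with 5 of 6 detected genes higher in replicate 1 and 1 not passing the test. The choroid plexus and ependyma list took 0.342% and 0.164%, with 3 of 5 higher and 1 lower. The neuron list took 3.32% and 3.44%, with 3 of 9 detected genes higher, a share close to that of all genes, and 6 lower, Mir138-1 and Mir138-2 among them. Its 3 genes that share no sequence took 1.99% and 1.91%, in the other order. Of its defining genes, Mir132 had 13708 and 11795 CPM and Mir137 5986 and 6832 CPM, but the 3 copies of Mir124a, which share sequence, had at most 5 reads. The erythroid list took 0.00476% and 0.00599%. Of the oligodendrocyte markers, Mir338 was lower and Mir219a-2 higher in replicate 1. Mir219a-1, below the minimum for detection, had 2 reads in replicate 1 and 26 in replicate 2. The part of the mix of cells in the difference of Mir338 was not tested.

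Depth allowed counts in this range to be read precisely within a library. Assigned reads were 3421977 of 9713924 in replicate 1 and 2820468 of 8551453 in replicate 2. In replicate 1, 41.6% of reads matched several places and 16.6% were unmapped, against 38.2% and 22.6% in replicate 2. The exact 95% interval for Mir338 ran from 2002 to 2098 CPM in replicate 1 and from 3926 to 4074 CPM in replicate 2, and that for Mir219a-2 from 2919 to 3035 and from 2602 to 2722 CPM. The difference between the libraries was thus larger than the counting error of either for both genes.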

How the data were processed

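MicroRNA-seq of 2 libraries from 1 group was read. The deposited values are the authors' raw counts of reads in 3 columns: either strand, the strand of the gene, and the other strand. Text notes beside the counts name mm10 and GENCODE M21. The labels give the RNA a size below 30, with no unit. No source used here gives the aligner, the counting tool or the trimming. The 4 rows that name no gene (64.8% and 67.0% of reads) stayed out of library sizes and tests.

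All gene IDs matched GENCODE M21. The own-strand column gave CPM over assigned reads, with exact Clopper-Pearson 95% intervals. Each detected gene (at least 10 reads in both libraries) was compared between libraries with the exact binomial test (two-sided), using TMM sizes of edgeR 4.0.16 (R 4.3.3), with Benjamini-Hochberg adjustment across all 389 genes and a threshold of 0.05. The test was checked on simulated counts with counting error alone, which does not show how it behaves on these libraries. The quasi-likelihood test had no contrast, and the edgeR exact test used the common dispersion (biological coefficient of variation 0.41) of an intercept-only design. Log2 ratios are replicate 1 over replicate 2. Hairpins were folded with RNAfold 2.7.2. Genes were named by rule: the 5 members, overlapping microRNA genes, the 3 nearest genes of each, seed sharers and the list genes; the copy pairs were added later. The lists come from general knowledge, and Mir7-1 and Mir7-2 were added by RefSeq synonym as an alternative. Members and lists were chosen with earlier results of these data known. As reads carry no molecular identifiers, the intervals and the limits for 0 reads reflect counting error alone. Size factors of DESeq2 1.42.0 served as an alternative scaling. Other alternatives covered scaling, filters, strand, GC content and each library alone.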

Additional observations from a re-analysis of the deposited data

Results flagged for a closer look

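Reads that fit several places were used in no comparison. They numbered 4037293 in replicate 1 and 3264159 in replicate 2, more than all assigned reads of each library, and have no gene name. Reads of exactly miR-219a-5p, which lies in both Mir219a-1 and Mir219a-2, fit both of these genes, and how many of the unnamed reads they are was not tested. With 1 group of 2 libraries, outlying samples and differences between groups were not looked for.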

How the results depend on the processing

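The differences of Mir338 and Mir219a-2 kept their direction and passed the exact binomial test with DESeq2 size factors, library totals, no filter, a minimum of 100 reads and a correction for hairpin GC content, with log2 ratios from -0.96 to -0.74 for Mir338 and from 0.16 to 0.37 for Mir219a-2. The edgeR exact test did not call them (-0.865 and 0.260), and it called 2 genes in place of 263. Its error comes from the same 2 libraries, so missing its threshold does not show that they were alike. The other settings called between 208 genes, of 241 tested at a minimum of 100 reads, and 282 genes, of 756 tested with no filter. In the column without strand neither gene could be tested, as the levels of both were 0 CPM. With all reads as the denominator in place of assigned reads, the mean levels were 1021 CPM for Mir338 and 963 CPM for Mir219a-2. Each library alone gave 2050 to 4000 CPM for Mir338, 2662 to 2977 CPM for Mir219a-2, and -0.54 to 0.59 for the log2 ratio between them. Summing both strands of a place, an alternative chosen after seeing the data, left Mir338 at 3025 and Mir219a-2 at 2819 CPM. The addition of Mir7-1 and Mir7-2 was also chosen after seeing the data. Of 30 values of the other members and the lists under alternatives that kept both libraries, 16 stayed within 1 SD and 14 moved, but 1 SD of 2 libraries is a loose measure: Mir219a-1 at 0 CPM in the column without strand counts as within it, as its SD was 6.11 CPM around 4.90. Without genes that share 20 bases, the oligodendrocyte lineage list took a mean of 2.75% ± 0.68, against 7.15% ± 0.071 for all its genes (SD, n = 2), and the neuron list was at 1.95%. No paired analysis was possible because there was 1 group. Low counts limit Mir219a-1, Mir219b and Mir219c, at 0 to 26 reads. For Mir219a-1 depth need not be the limit, as reads of exactly miR-219a-5p also fit Mir219a-2. How those reads were counted is not known.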
